A study of Caenorhabditis elegans with 12 samples.

Results

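The 7 genes described here encode enzymes that carry carbon from fat into sugar, into trehalose and into glycerol in Caenorhabditis elegans: icl-1, pck-1, fbp-1, tps-1, tps-2, gpdh-1 and gpdh-2. They were chosen by name from the 12894 genes in the deposited table. For 6 of them the row was found under the sequence name given for the gene. The row of pck-1 was taken as W05G11.6, which the WBcel235 annotation pairs with that symbol, because the sequence name given for it (W05G3.1) matched no row used here. All 7 passed the filter on low values, as did 12830 of the 12894 genes.

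The study asked how a long arrest in the first larval stage (L1), a non-feeding state that hatchlings enter without food, and reduced insulin-like signalling bear on messenger RNA of early adults. Whole animals of the laboratory wild type, N2 (Bristol), were held arrested for 1 day (control) or 8 days (starved). Per condition, 1000 live animals recovered at 20 °C on HT115 Escherichia coli that carried either an empty vector (EV) or a construct for RNA interference (RNAi) against daf-2, the insulin/IGF receptor gene. They were collected, as pools, once eggs could be seen, which took about 68 h after the long arrest and about 52 h after the short one.

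The groups are therefore starved animals on daf-2 RNAi, starved animals on EV, control animals on daf-2 RNAi and control animals on EV, with 3 biological replicates each, lettered A, B and C. Time on the bacteria, arrest length and time to first eggs cannot be told apart in the starved against control comparisons. In bulk RNA from whole animals, fewer cells of a type and less RNA per cell cannot be told apart either.

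As background, the glyoxylate shunt bypasses the decarboxylating steps of the citrate cycle, so that acetyl units from fat can enter gluconeogenesis; nematodes have this shunt and mammals do not. Glucose phosphates made in this way feed the synthesis of trehalose, a storage sugar and protectant of membranes and proteins, and glycerol is built from a glycolytic intermediate and serves as an osmolyte. In worms, the shunt and trehalose synthesis are known as features of the arrested dauer larva and of animals with low DAF-2 signalling, and gpdh-1 is known for its strong induction in the intestine and hypodermis under hypertonic stress.

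The libraries held 21150912 to 30037731 reads in genes, as recovered from the deposited values, and levels are given as normalised counts (CPM, reads scaled to a common library size). The count of the gene that the RNAi targets goes against the label. daf-2 itself had 706, 289 and 111 CPM in starved libraries A, B and C labelled daf-2 RNAi, against 193, 153 and 102 CPM in starved EV, and 317, 202 and 118 CPM in control libraries labelled daf-2 RNAi, against 188, 155 and 91.6 CPM in control EV. It was thus higher under the label in each of 6 same-letter pairs, and groups on the construct are called by their label throughout. The source of the daf-2 reads was not tested. The DAF-16 target sod-3, a superoxide dismutase gene, averaged 12.1 ± 2.51 CPM in starved libraries labelled daf-2 RNAi against 3.52 ± 0.80 CPM in starved EV, and 11.03 ± 1.52 CPM in control libraries labelled daf-2 RNAi against 1.94 ± 0.39 CPM in control EV (SD, n = 3 each). Markers of adults, the cuticle collagen gene col-19 and the yolk protein genes vit-2 to vit-6, were present in every group, and no marker of intestine, hypodermis, muscle, neurons, germline or oocytes was at 0 in all libraries of a group.

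Differences were tested with limma on log2(CPM + 1) over all 12 libraries, with Benjamini-Hochberg adjustment over 12830 genes and a threshold of 0.05. In starved EV animals against control EV animals all 7 genes had a positive difference, with a median of 0.45 on the log2 scale against 0.03 for all genes, but limma called 0 of 7, where 11.5% of all genes tested were called higher and 6.12% lower. At an unadjusted p under 0.05 limma marked 3 of the 7, against 37.5% of all genes tested. edgeR called 1 (tps-1, with 10.9% of all genes tested higher) and DESeq2 called 2 (tps-1 and gpdh-1, with 13.5% higher). With the replicate letter as a block limma called all 7 higher, where 23.3% of all genes tested were called higher and 26.3% lower. In starved libraries labelled daf-2 RNAi against starved EV, 1 of 7 genes was called, gpdh-1, and it was lower; 11.9% of all genes tested were called lower and 3.8% higher.

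In control libraries labelled daf-2 RNAi against control EV, the called gene was again gpdh-1, 1 of 7, and it was lower; here 0.725% of all genes tested were called lower and 0.663% higher. Between starved and control libraries that both carried the daf-2 RNAi label, limma called 0 of 7, with 0 at an unadjusted p under 0.05 and 0 by edgeR and DESeq2; 0.663% of all genes tested were called higher and 0.039% lower. The median difference of the 7 genes was 0.07 between the labels in starved animals, 0.24 between the labels in control animals and 0.10 between arrest lengths under the label, against medians of 0.00, -0.01 and 0.01 for all genes. The interaction of arrest length and RNAi label was called by limma for 0 of the 7 genes and for 0 of all genes tested. At an unadjusted p under 0.05 stood 912 of all genes and 0 of the 7. edgeR and DESeq2 called 0 of the 7. The check of the label held 3 genes, daf-2, sod-3 and mtl-1. Under the label limma called 2 of them higher and 0 lower in starved animals. In control animals it called 1 higher and 0 lower. With the replicate letter as a block these were 3 and 2 higher, and 0 lower, where 23.7% and 1.78% of all genes tested were higher.

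**Figure D1:**
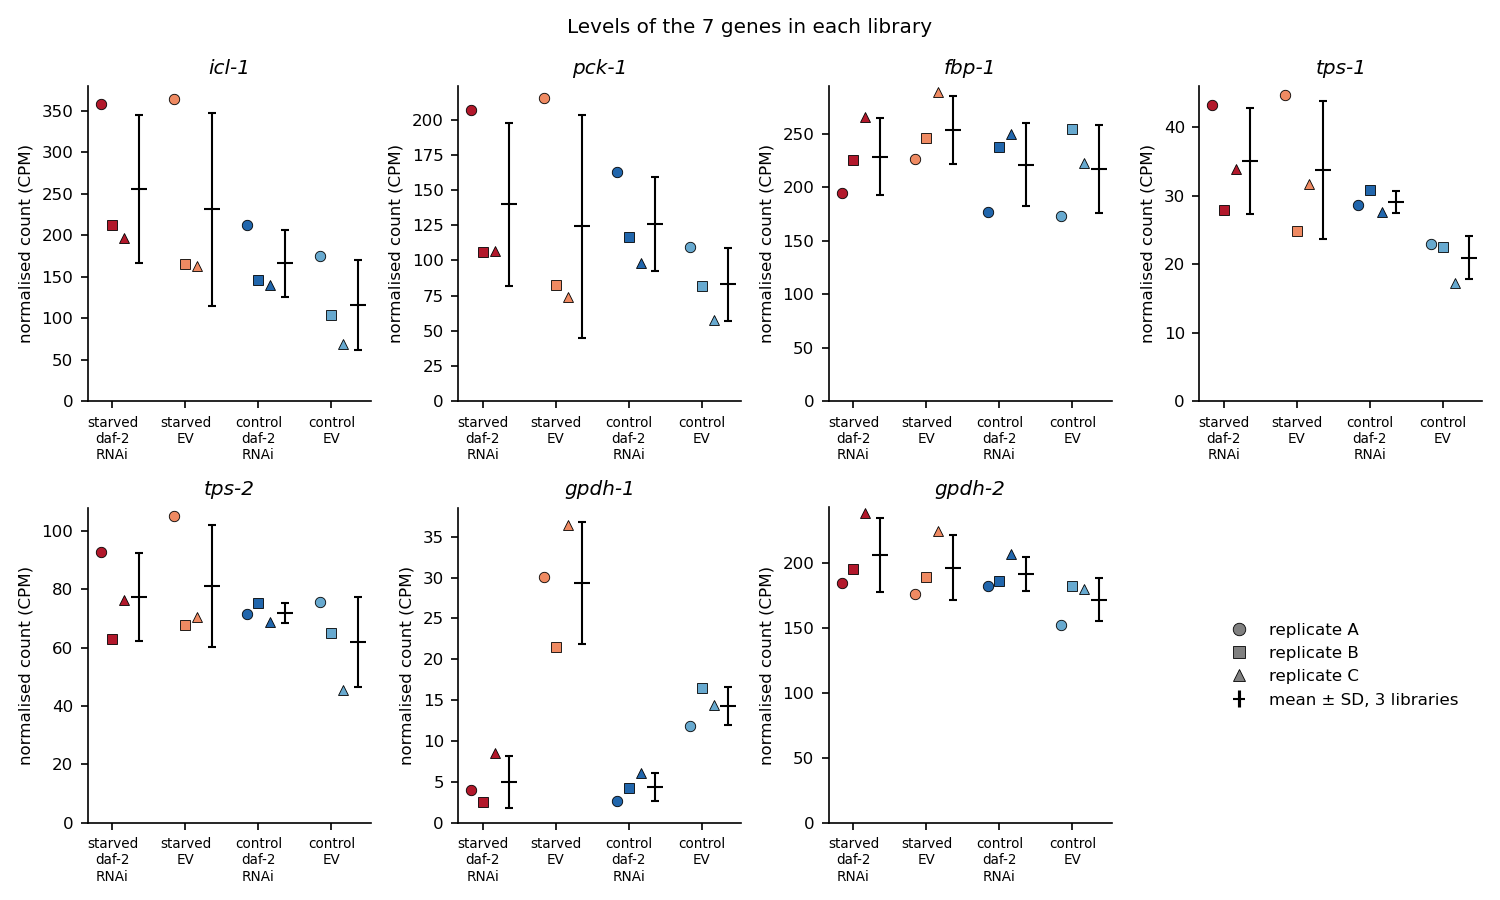
Normalised counts (CPM, linear axes from 0) of the 7 genes in each library, with circles, squares and triangles for replicates A, B and C and a bar for the mean ± SD of 3 libraries per group. gpdh-1 lies between 2.49 and 8.59 CPM in the 6 libraries labelled daf-2 RNAi and between 11.9 and 36.4 CPM in the 6 EV libraries; in icl-1 and pck-1, replicate A is the highest of each group.

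**Figure D2:**
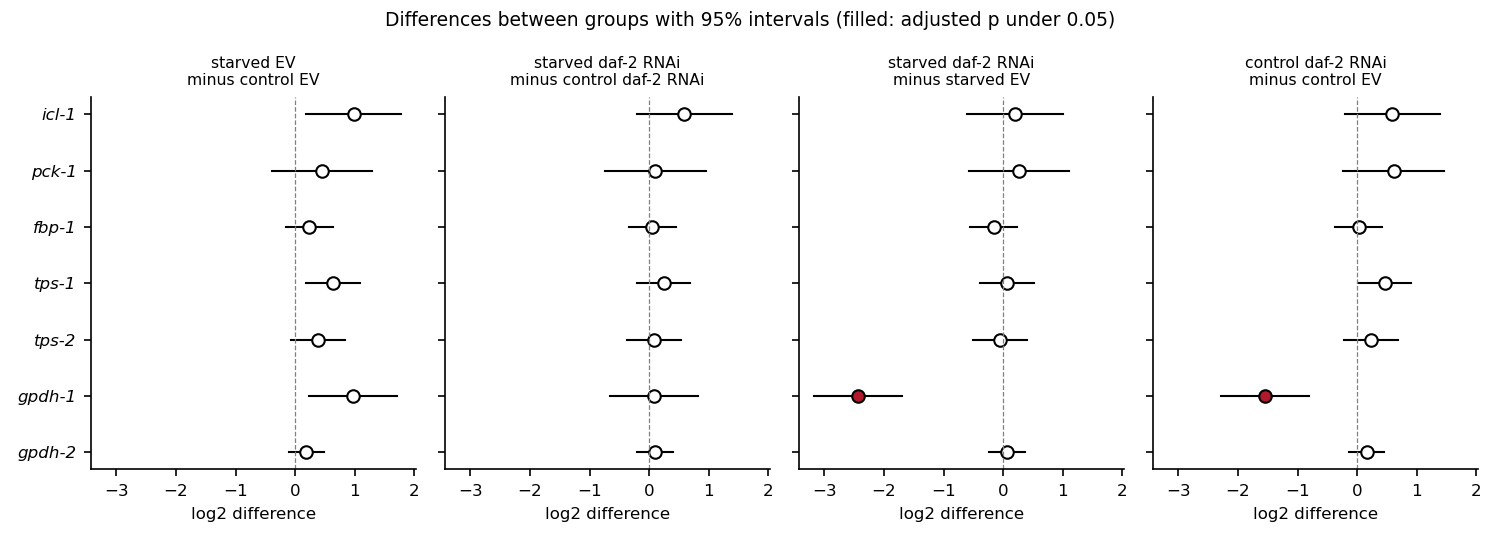
Log2 differences of the 7 genes in 4 comparisons (x axis, first group minus second), with 95% intervals from limma as lines; filled points have an adjusted p under 0.05. Only the gpdh-1 points of the 2 comparisons between RNAi labels are filled, at -2.44 after the long arrest and -1.55 after the short one.

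Glycerol synthesis starts with glycerol-3-phosphate dehydrogenase, which reduces dihydroxyacetone phosphate, and gpdh-1 (F47G4.3, WBcel235 I:14075837-14078211, plus strand) encodes the osmotically induced form. It fell under the daf-2 RNAi label after both arrest lengths. In replicates A, B and C it had 3.94, 2.49 and 8.59 CPM in starved libraries labelled daf-2 RNAi, against 30.1, 21.5 and 36.4 CPM in starved EV libraries. These are 114, 60 and 198 recovered reads, against 663, 549 and 980 in starved EV. The highest labelled library lay well below the lowest EV library, so that the groups did not overlap; of all genes tested, 21.8% were separated in that direction in this comparison.

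The means of gpdh-1 were 5.01 ± 3.19 CPM in starved libraries labelled daf-2 RNAi and 29.4 ± 7.48 CPM in starved EV libraries (SD, n = 3 each), a ratio of 0.171. On the log2 scale the difference was -2.44 ± 0.34 (SE; 95% interval -3.17 to -1.70; limma adjusted p = 0.0013). Every same-letter pair shared the direction, with ratios of 0.131, 0.116 and 0.236. The call held in all 22 alternative settings, over which the adjusted p ran between 1.43e-08 and 0.00769.

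After the short arrest, gpdh-1 had 2.69, 4.29 and 6.09 CPM in control libraries labelled daf-2 RNAi, against 11.9, 16.5 and 14.4 CPM in control EV libraries. Again each labelled library was below each EV library, as for 9.13% of all genes tested. The means were 4.36 ± 1.70 CPM under the label and 14.3 ± 2.33 CPM in EV (SD, n = 3 each), a ratio of 0.305, and the log2 difference was -1.55 ± 0.34 (SE; 95% interval -2.29 to -0.81; limma adjusted p = 0.0445). With the replicate letter as a block the adjusted p was 0.00401. The call lay close to the threshold: it was lost in 13 of 22 alternatives, among them edgeR without the block (adjusted p = 0.0603) and the removal of any 1 library other than starved B or starved C labelled daf-2 RNAi, where the adjusted p reached 0.203 without control EV library B.

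The lower level of gpdh-1 under the label was not shown to differ in size between the arrest lengths: the interaction was -0.88 ± 0.48 on the log2 scale (SE; 95% interval -1.93 to 0.16; limma adjusted p = 0.721). Among EV libraries, gpdh-1 was higher in each starved library than in each control library, a separation that 23.4% of all genes tested showed in that direction. The difference was 0.97 ± 0.34 (SE; 95% interval 0.23 to 1.71), with a limma adjusted p of 0.0634 that missed the threshold. It passed without starved EV library B (adjusted p = 0.04999) and without starved library B or C labelled daf-2 RNAi (adjusted p = 0.0456 and 0.0292). With the replicate letter as a block its limma adjusted p was 0.00853. Under the daf-2 RNAi label the starved and control libraries overlapped, at 0.09 ± 0.34 (SE; 95% interval -0.65 to 0.82; limma adjusted p = 0.971). In the order of group means, starved EV stood above control EV, and the groups labelled daf-2 RNAi came last and did not differ beyond their spread.

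The exons of gpdh-1 share 73 of 1308 bases with gadr-6 on the opposite strand, and whether the counting used strand is not given in the sources used here. gadr-6 averaged 17.7 ± 2.42 CPM in starved libraries labelled daf-2 RNAi and 18.1 ± 1.33 CPM in starved EV (SD, n = 3 each). It averaged 17.3 ± 2.93 CPM in control libraries labelled daf-2 RNAi and 16.3 ± 2.08 CPM in control EV, so the level of the overlapping gene did not follow that of gpdh-1.

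Some markers of the tissues in which gpdh-1 is known to be induced were also lower in starved libraries labelled daf-2 RNAi. The summed level of 9 hypodermis markers ran between 780 and 953 CPM there, against 1387 to 1600 CPM in starved EV, with 4 of 9 called lower and 0 higher by limma. For 9 intestine markers the sums were 2811 to 3286 CPM against 3780 to 4938 CPM in starved EV, with 3 called lower and 1 higher. Of all genes tested, limma called 11.9% lower and 3.8% higher in this comparison. With the replicate letter as a block, 6 hypodermis markers were called lower and 1 higher, and 7 intestine markers lower and 1 higher; 24.3% of all genes tested were then called lower and 23.7% higher. Between the control groups the sums overlapped for hypodermis, at 1160 to 2074 CPM under the label and 1702 to 2413 CPM in EV, and for intestine, at 3184 to 3545 CPM under the label and 3514 to 4784 CPM in EV. The hypodermis sum need not follow single markers. In starved EV against control EV limma called 4 of 9 higher and 0 lower (11.5% and 6.12% of all genes tested), while the sums were 1387 to 1600 against 1702 to 2413 CPM. Of these markers, col-19 is also counted with the adult markers and dpy-7 with the furrow collagens. Markers of other cells moved in starved libraries labelled daf-2 RNAi against starved EV. Of 8 germline markers, 3 were called higher and 0 lower in starved libraries labelled daf-2 RNAi (8 higher with the block), with sums of 4557 to 5533 CPM against 2513 to 4061 CPM in starved EV. Of 8 oocyte and eggshell markers, 3 were higher and 0 lower (6 higher with the block), with sums of 8445 to 9847 CPM against 5693 to 8340 CPM.

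In the other direction, limma called 0 of 8 body wall muscle markers, with 1 at an unadjusted p under 0.05, 0 by edgeR and DESeq2, and 7 lower with the block. Of the 6 adult markers, 1 was lower, and 6 with the block. Of 8 neuron markers it called 0, with 2 at an unadjusted p under 0.05, 0 by edgeR and DESeq2, and 2 lower with the block. The part of these marker shifts in the gpdh-1 result was not tested.

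The other member of the family, gpdh-2 (K11H3.1, III:9854074-9859183, minus strand), encodes the form known to be expressed without osmotic stress, and its level was the steadiest of the 7 genes. In replicates A, B and C it had 185, 196 and 239 CPM in starved libraries labelled daf-2 RNAi and 176, 189.6 and 225 CPM in starved EV. The control libraries labelled daf-2 RNAi had 183, 186 and 207 CPM, and those of control EV 153, 183 and 180.2 CPM. The groups of each comparison overlapped. The highest of the 12 libraries exceeded the lowest 1.56 times, against 14.6 times for gpdh-1.

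Under the label, gpdh-2 differed from EV by 0.07 ± 0.14 after the long arrest (SE; 95% interval -0.23 to 0.36; limma adjusted p = 0.718) and by 0.16 ± 0.14 after the short one (SE; 95% interval -0.14 to 0.46; adjusted p = 0.856). It was slightly higher under the label in 6 of 6 same-letter pairs, by ratios between 1.02 and 1.19, as were 14.3% of all genes tested. The pair of paralogs thus separated: per kilobase of exon, gpdh-1 amounted to 2.51%, 1.497% and 4.24% of the gpdh-2 level in starved libraries A, B and C labelled daf-2 RNAi, against 20.1%, 13.4% and 19.1% in starved EV. In control libraries it was 1.74%, 2.71% and 3.46% under the label, against 9.16%, 10.7% and 9.42% in EV.

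A further glycerol-3-phosphate dehydrogenase gene, gpdh-3, averaged 242 ± 4.40 CPM in starved libraries labelled daf-2 RNAi and 217 ± 4.51 CPM in starved EV, with 269 ± 7.51 CPM in control libraries labelled daf-2 RNAi and 225 ± 18.5 CPM in control EV (SD, n = 3 each). It was higher under the label in 6 of 6 same-letter pairs, as were 14.3% of all genes tested. Its difference in control animals, 0.26 ± 0.10 (SE), had a limma adjusted p of 0.399, and of 0.0392 with the replicate letter as a block.

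The glycerol list, beside gpdh-1 and gpdh-2, held gpdh-3 and the 3 phosphatase genes pgph-1, pgph-2 and pgph-3, which are related to enzymes that release glycerol from glycerol-3-phosphate. In starved libraries labelled daf-2 RNAi against starved EV, 1 of these 4 was called lower and 0 higher, with a median difference of -0.13. Of all genes tested, 11.9% were called lower and 3.8% higher. The called gene, pgph-3, had 11.62, 10.2 and 10.1 CPM in starved libraries labelled daf-2 RNAi, against 24.7, 15.6 and 23.5 CPM in starved EV. The groups of pgph-3 did not overlap, as for 21.8% of all genes tested in that direction. The difference was -0.91 ± 0.19 (SE; limma adjusted p = 0.00915). In control animals pgph-3 averaged 9.40 ± 1.51 CPM under the label and 15.2 ± 1.99 CPM in EV (SD, n = 3 each), a difference of -0.65 ± 0.19 that did not pass the test (limma adjusted p = 0.161). pgph-2 stayed between group means of 14.7 and 17.5 CPM, and pgph-1 was near 1 CPM in every group.

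**Figure D3:**
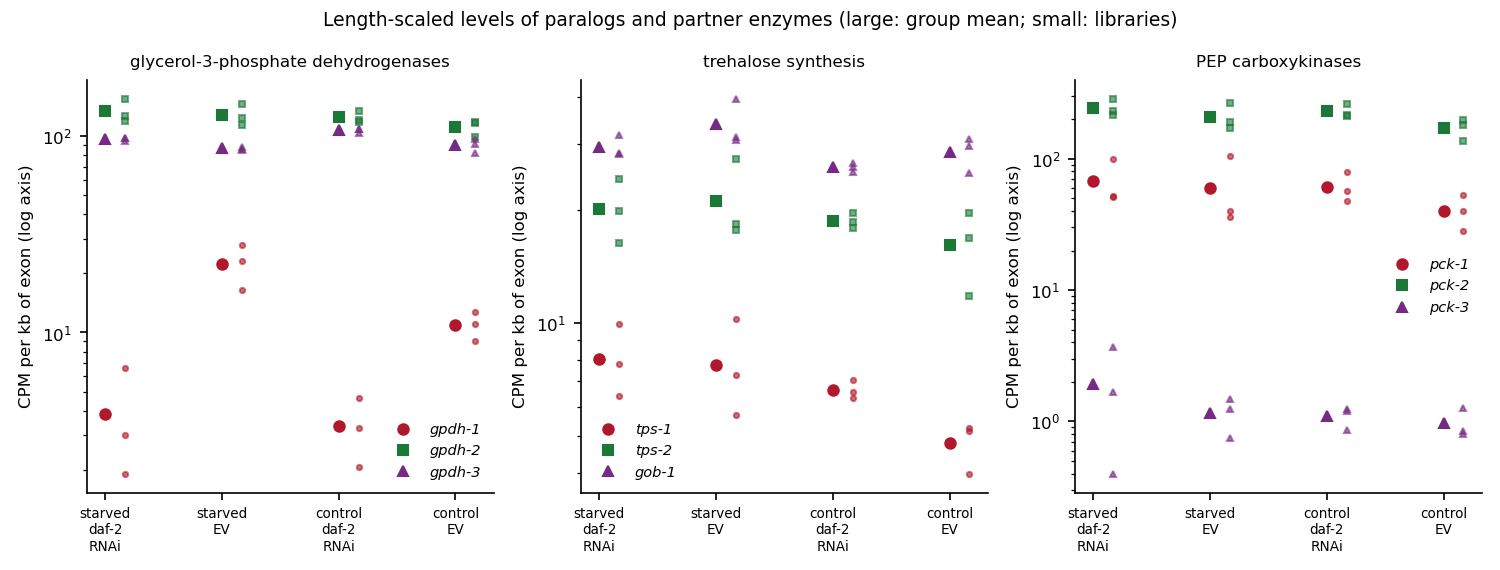
Levels per kilobase of exon (CPM per kb, log axes) of the paralogs and direct partners of the 7 genes in the 4 groups, by enzyme family, with large symbols for group means and small ones for libraries. gpdh-1 stands well apart between RNAi labels, at group means of 3.83 and 22.4 CPM per kb in starved libraries labelled daf-2 RNAi and starved EV, while gpdh-2 lies between 112 and 134 CPM per kb.

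The glyoxylate shunt is represented by icl-1 (C05E4.9, V:724332-728004, minus strand), whose single protein carries both isocitrate lyase and malate synthase activity. In replicates A, B and C it had 358, 213 and 196 CPM in starved libraries labelled daf-2 RNAi and 365, 165 and 163 CPM in starved EV. Control libraries labelled daf-2 RNAi had 213, 146 and 139.7 CPM, and control EV libraries 175, 104 and 69.3 CPM. Replicate A was the highest and C the lowest in each group, and neighbouring groups overlapped in every comparison.

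The group means of icl-1 followed the order starved daf-2 RNAi label (256 ± 89.3 CPM), starved EV (231 ± 116 CPM), control daf-2 RNAi label (166 ± 40.5 CPM) and control EV (116 ± 53.8 CPM; SD, n = 3 each). Starved EV exceeded control EV by 0.98 ± 0.37 on the log2 scale (SE; 95% interval 0.18 to 1.78), a ratio of means of 1.99, but the limma adjusted p was 0.0775. Over the removals of single libraries this p ran between 0.0326, without control EV library A, and 0.255. Under the label the starved libraries exceeded the control ones by 0.59 ± 0.37 (SE; limma adjusted p = 0.639). With the replicate letter as a block the limma adjusted p was 0.000222 in EV and 0.0255 under the label. Of all genes tested, 23.3% and 3.08% were then called higher.

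Between RNAi labels, icl-1 differed by 0.20 ± 0.37 in starved animals (SE; 95% interval -0.60 to 1.00; limma adjusted p = 0.689). In control animals the difference was 0.59 ± 0.37 (SE; limma adjusted p = 0.752). With the replicate letter as a block the control difference passed the test (limma adjusted p = 0.0178), with ratios of 1.22, 1.41 and 2.02 in pairs A, B and C. With that block, 2 of the 7 genes were called higher in control libraries labelled daf-2 RNAi, icl-1 and pck-1, and 1 lower, gpdh-1; of all genes tested, 1.78% were then called higher and 4.02% lower.

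Gluconeogenesis proper begins with phosphoenolpyruvate carboxykinase, which turns oxaloacetate into phosphoenolpyruvate, and pck-1 (W05G11.6, III:62888-66260, minus strand) is a gene for it. In replicates A, B and C it had 207, 106 and 107 CPM in starved libraries labelled daf-2 RNAi and 215, 82.8 and 74.3 CPM in starved EV. The control libraries labelled daf-2 RNAi had 163, 117 and 98.1 CPM, and the control EV libraries 109.5, 81.8 and 57.6 CPM. As for icl-1, replicate A was the highest of its group in all 4 groups, and all groups overlapped.

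Starved EV exceeded control EV in pck-1 by 0.45 ± 0.39 (SE; 95% interval -0.40 to 1.29; limma adjusted p = 0.406). Without starved EV library A it was -0.03, but control EV library A, the highest of its group, was then kept. The same-letter ratios of starved EV over control EV were 1.97, 1.01 and 1.29 in pairs A, B and C. Between RNAi labels the differences were 0.27 ± 0.39 in starved animals (limma adjusted p = 0.610) and 0.61 ± 0.39 in control animals (limma adjusted p = 0.761; 0.0371 with the replicate letter as a block). The control ratios were 1.49, 1.43 and 1.70 in pairs A, B and C, all above 1. For starved EV against control EV the limma adjusted p with the block was 0.0301.

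The more abundant carboxykinase gene was the paralog pck-2, which averaged 810 ± 125 CPM in starved libraries labelled daf-2 RNAi, 695 ± 169.8 CPM in starved EV, 762.3 ± 92.6 CPM in control libraries labelled daf-2 RNAi and 568 ± 103 CPM in control EV (SD, n = 3 each). It was higher under the label in 6 of 6 same-letter pairs, by ratios of 1.07 to 1.57, as were 14.3% of all genes tested. In control animals the difference was 0.44 ± 0.20 (SE; limma adjusted p = 0.536; 0.0174 with the block). pck-3 stayed between 0.79 and 7.25 CPM. Per kilobase of exon, pck-2 stood at 244 CPM against 67.8 CPM for pck-1 in starved libraries labelled daf-2 RNAi and at 171 CPM against 40.3 CPM in control EV.

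The later step, in which fructose-1,6-bisphosphatase removes a phosphate from fructose bisphosphate, belongs to fbp-1 (K07A3.1, I:2581015-2586124, minus strand). In replicates A, B and C it had 194, 225 and 266 CPM in starved libraries labelled daf-2 RNAi and 227, 246 and 289 CPM in starved EV. Control libraries labelled daf-2 RNAi had 177, 238 and 249 CPM, and control EV libraries 174, 255 and 223 CPM. Here replicate A was the lowest in each group, and all groups overlapped.

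Without a block, no comparison passed the limma test for fbp-1. With the replicate letter as a block, starved EV against control EV did (limma adjusted p = 0.0471). Starved EV differed from control EV by 0.24 ± 0.18 (SE; 95% interval -0.16 to 0.63; limma adjusted p = 0.352). In starved animals the labelled libraries differed from EV by -0.16 ± 0.18 (SE; 95% interval -0.55 to 0.24; limma adjusted p = 0.526). In control animals that difference was 0.03 ± 0.18 (SE; limma adjusted p = 0.990).

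Trehalose is made in a pair of steps, and trehalose-6-phosphate synthase, the first, is encoded by tps-1 (ZK54.2, X:17467121-17474534, minus strand) and tps-2 (F19H8.1, II:14600902-14610554, plus strand). In replicates A, B and C tps-1 had 43.2, 27.9 and 33.9 CPM in starved libraries labelled daf-2 RNAi and 44.6, 24.8 and 31.6 CPM in starved EV. It had 28.6, 30.7 and 27.6 CPM in control libraries labelled daf-2 RNAi and 22.99, 22.5 and 17.3 CPM in control EV. Control EV had the lowest mean. None of its libraries reached any library of starved EV or of the control group labelled daf-2 RNAi. For starved EV against control EV, 23.4% of all genes tested were separated in that direction. The other groups overlapped among themselves.

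Starved EV exceeded control EV in tps-1 by 0.63 ± 0.21 (SE; 95% interval 0.18 to 1.08), just short of the threshold with limma (adjusted p = 0.0534) and past it with edgeR (adjusted p = 0.0479) and DESeq2 (adjusted p = 0.0258). It also passed with limma without starved EV library B (adjusted p = 0.0232) or starved library B labelled daf-2 RNAi (adjusted p = 0.0495). With the replicate letter as a block the limma adjusted p was 0.00728. Control libraries labelled daf-2 RNAi exceeded control EV by 0.46 ± 0.21 (SE; 95% interval 0.01 to 0.91; limma adjusted p = 0.523; 0.121 with the block); 7.01% of all genes tested were separated in that direction in that comparison. In starved animals the labelled libraries differed from EV by 0.07 ± 0.21 (SE; 95% interval -0.38 to 0.52; limma adjusted p = 0.808). The interaction was -0.39 ± 0.29 (SE; limma adjusted p = 0.722).

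tps-2 had 92.8, 62.8 and 76.2 CPM in starved libraries A, B and C labelled daf-2 RNAi and 105, 67.9 and 70.4 CPM in starved EV. Control libraries had 71.5, 75.3 and 68.7 CPM under the label and 75.5, 64.9 and 45.4 CPM in EV. All groups overlapped. Starved EV differed from control EV by 0.39 ± 0.21 (SE; 95% interval -0.07 to 0.84; limma adjusted p = 0.194), and the labelled libraries differed from EV by -0.06 ± 0.21 in starved animals (adjusted p = 0.845) and by 0.24 ± 0.21 in control animals (adjusted p = 0.861).

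Per kilobase of exon, tps-2 was the more abundant synthase gene in every library, 2.43 to 3.73 times the level of tps-1. Of its exon bases, 24 of 3839 are shared with arl-3 on the same strand, a gene at 0.58 to 1.97 CPM on average per group. The phosphatase of the next step, gob-1, averaged 57.4 ± 3.90 CPM in starved libraries labelled daf-2 RNAi, 66.1 ± 9.62 CPM in starved EV, 50.7 ± 1.47 CPM in control libraries labelled daf-2 RNAi and 55.7 ± 5.94 CPM in control EV (SD, n = 3 each). No comparison of it passed the limma test without a block.

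Trehalose is split again by trehalases, and the list of gob-1 with tre-1 to tre-5 had 1 of 6 genes called lower and 0 higher in starved libraries labelled daf-2 RNAi against starved EV, at a median difference of -0.12. Of all genes tested, 11.9% were called lower and 3.8% higher. The called gene was tre-2, with 76.4, 76.6 and 91.9 CPM in starved libraries labelled daf-2 RNAi against 111, 109.4 and 124 CPM in starved EV. The groups did not overlap, as for 21.8% of all genes tested in that direction, and the difference was -0.49 ± 0.14 (SE; limma adjusted p = 0.0401). tre-3 averaged 27.2 ± 2.41 CPM under the label and 34.6 ± 1.81 CPM in starved EV, a difference of -0.34 ± 0.13 with a limma adjusted p of 0.094, or 0.0156 with the block. tre-1, the most abundant trehalase gene per kilobase, stood at 169.4 ± 16.6 CPM under the label and 168 ± 13.7 CPM in starved EV (SD, n = 3 each).

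In starved EV against control EV, limma called 0 of those 6 genes, with 3 at an unadjusted p under 0.05, 0 called by edgeR and 2 by DESeq2. Nearest to the threshold were tre-4, at 8.53 ± 0.65 CPM in starved EV and 5.70 ± 0.65 CPM in control EV (limma adjusted p = 0.0527), and tre-5, at 2.01 ± 1.06 CPM in starved EV and 0.80 ± 0.42 CPM in control EV (SD, n = 3 each; limma adjusted p = 0.0656).

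Across the 7 genes, levels per kilobase of exon were highest for gpdh-2 and fbp-1 in each group. In starved libraries labelled daf-2 RNAi the means were 134 CPM per kb for gpdh-2, 112 for fbp-1, 81.7 for icl-1, 67.8 for pck-1, 20.1 for tps-2, 8.04 for tps-1 and 3.83 for gpdh-1. In control EV they were 112 for gpdh-2, 106 for fbp-1, 40.3 for pck-1, 37.0 for icl-1, 16.1 for tps-2, 10.9 for gpdh-1 and 4.81 for tps-1. Thus gpdh-1 ranked above tps-1 in EV libraries and below it in libraries labelled daf-2 RNAi.

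The genes also differed in how far replicates of a group lay apart. The SD within groups on the log2 scale was 0.58 for pck-1, 0.55 for icl-1 and 0.49 for gpdh-1, larger than for 97.0%, 96.3% and 94.3% of all genes tested, against 0.16 for gpdh-2, larger than for 21.9%. The median over all genes tested was 0.23. For icl-1, replicate A lay 0.38 to 0.76 above its group mean and C 0.22 to 0.63 below it, over the 4 groups. fbp-1 and gpdh-2 went the other way, with replicate A 0.16 to 0.31 and 0.07 to 0.16 below the group mean.

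**Figure D4:**
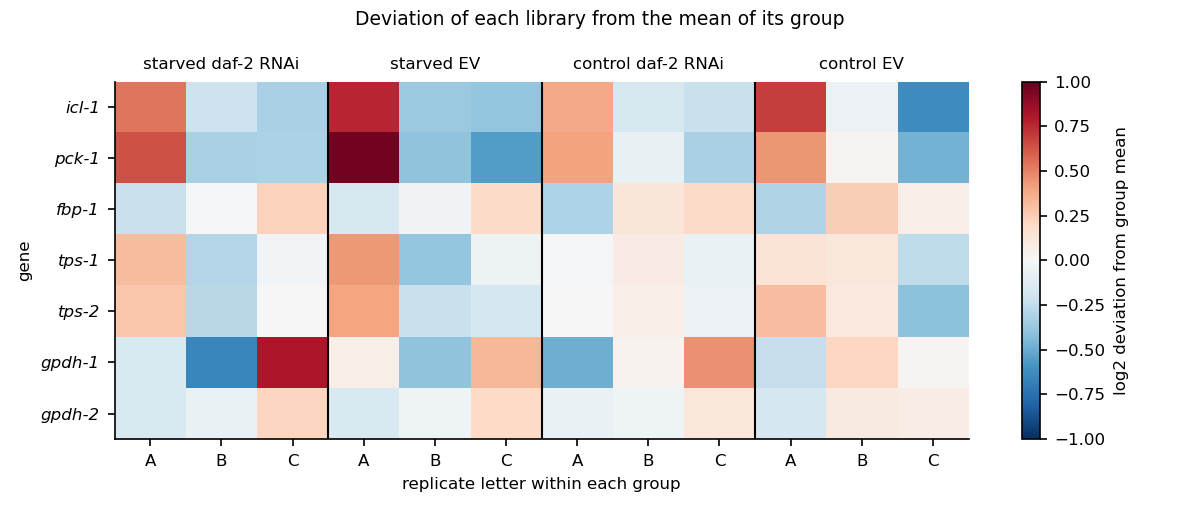
Deviation of each library from its group mean, on the log2(CPM + 1) scale, for the 7 genes (rows) and the 12 libraries (columns, by group and replicate letter), with red above and blue below the mean. Replicate A is above the mean in all groups for icl-1 and pck-1 and below it in all groups for fbp-1 and gpdh-2.

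As a description over 12 libraries that share groups and letters, the deviations of icl-1 from its group means correlated with those of pck-1 at 0.96, of tps-2 at 0.89 and of tps-1 at 0.79, and with those of fbp-1 at -0.77 and gpdh-2 at -0.76. The deviations of fbp-1 and gpdh-2 correlated at 0.86, and those of tps-1 and tps-2 at 0.92. Summed levels of 8 body wall muscle markers and of the adult markers moved with the letter as well. Replicate A had the highest muscle sum of each group, at 4705 CPM against 1551 CPM in the lowest replicate of the starved libraries labelled daf-2 RNAi, 7964 against 2026 CPM in starved EV, 4278 against 2103 CPM in control libraries labelled daf-2 RNAi and 6698 against 2443 CPM in control EV. The adult markers summed to 47353 CPM in replicate A and 25944 CPM in C in starved libraries labelled daf-2 RNAi, to 105257 and 37005 CPM in starved EV, to 46431 and 26130 CPM in control libraries labelled daf-2 RNAi, and to 76079 and 22182 CPM in control EV. Their part in the spread of the 7 genes was not tested.

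For each gene, the 3 genes of most similar pattern were taken by Pearson's r of log2(CPM + 1) over the 12 libraries, out of 5087 genes that averaged 10 CPM or more and carry a gene class symbol. For gpdh-1 these were slc-17.4 (r = 0.98), amt-1 (0.97) and gly-13 (0.97), and for gpdh-2 sto-4 (0.95), clec-85 (0.93) and ceh-41 (0.92). For icl-1 they were magi-1 (0.97), brp-1 (0.95) and gap-2 (0.94), and for pck-1 its paralog pck-2 (0.95), gcy-12 (0.94) and che-10 (0.94). The nearest to fbp-1 were inx-9 (0.97), mtpn-1 (0.96) and unc-32 (0.94). tps-1 was nearest to bam-2 (0.94), brp-1 (0.92) and asns-2 (0.92), and tps-2 to nfki-1 (0.93), srap-1 (0.93) and unc-13 (0.92). Deviations from group means alone correlated at 0.83 or more for all 21 of these pairs.

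Among the neighbouring pathways, 7 lists with 76 genes tested held 5 genes called higher and 9 lower in starved libraries labelled daf-2 RNAi against starved EV, against 3.8% of all genes tested higher and 11.9% lower. With the replicate letter as a block 12 (15.8%) were higher and 17 (22.4%) lower, below the shares of all genes tested, 23.7% and 24.3%. By list, the block gave 4 glycogen genes higher, 4 genes of glycolysis and gluconeogenesis higher and 2 lower, 3 citrate cycle genes higher and 4 lower, 2 genes of the trehalase list lower, 1 osmotic stress gene higher and 4 lower, and 4 furrow collagens lower. Glycogen genes gave 2 of 5 higher and 0 lower, at a median of 0.45 against 0.00 for all genes: gsy-1, the glycogen synthase gene, by 0.59 ± 0.15 (SE; limma adjusted p = 0.0221), and gyg-2, a glycogenin gene for the primer of glycogen, by 0.59 ± 0.15 (adjusted p = 0.020). Of 21 genes of glycolysis and gluconeogenesis, 2 were higher and 1 lower. The higher ones were the glyceraldehyde-3-phosphate dehydrogenase genes gpd-1 (0.59 ± 0.15) and gpd-4 (0.60 ± 0.15), close paralogs whose reads may not be separable, and the lower one was the lactate dehydrogenase gene ldh-1 (-0.37 ± 0.11). Of 26 citrate cycle genes, sdha-2, for a subunit of succinate dehydrogenase, was higher (0.40 ± 0.12) and sucl-1, for a subunit of succinyl-CoA ligase, lower (-0.51 ± 0.14).

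In worms, loss of the furrow collagens of the cuticle and of some osmotic stress genes is known to raise gpdh-1. The list of osmotic stress genes used here was not limited to genes of that kind. Of 8 osmotic stress genes, 0 were higher and 2 lower in starved libraries labelled daf-2 RNAi against starved EV, at a median of -0.48: osm-7 (-0.80 ± 0.20, limma adjusted p = 0.0206) and ptr-23 (-0.59 ± 0.16, adjusted p = 0.0324). Of 6 annular furrow collagen genes, limma called 0 higher and 3 lower, at a median of -1.29, with dpy-2 at -1.46 ± 0.36 (adjusted p = 0.0201). edgeR called 1 of these 6 and DESeq2 called 2. The furrow collagens summed to 23.2 to 37.3 CPM in starved libraries labelled daf-2 RNAi, against 71.0 to 85.2 CPM in starved EV. The part of these genes in the gpdh-1 result was not tested.

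In starved EV against control EV, 2 of the 8 osmotic stress genes were higher, ptr-23 (0.62 ± 0.16, limma adjusted p = 0.0252) and osr-1 (0.75 ± 0.20, adjusted p = 0.0239; 1.36 CPM in starved EV and 0.40 CPM in control EV on average), and 0 lower, at a median of 0.42 against 0.03 for all genes. Of the 6 furrow collagens, limma called 4 higher and 0 lower, at a median of 1.93, with dpy-7 at 2.64 ± 0.51 (adjusted p = 0.00606). edgeR and DESeq2 each called 3 of these 6. The other 5 lists held 0 calls with limma, at medians between -0.20 for glycogen and 0.27 for the list of gob-1 and trehalases. Over all 7 lists the 6 genes called are 7.89% of 76, against 11.5% of all genes tested called higher. edgeR called 5 of the 76 (6.58%) and DESeq2 12 (15.8%), against 16.5% and 25.2% of all genes, and 18 (23.7%) had an unadjusted limma p under 0.05, against 37.5% of all genes. With the replicate letter as a block 14 (18.4%) were higher and 14 (18.4%) lower, against 23.3% and 26.3% of all genes. The lower ones were 11 citrate cycle genes, 2 of glycolysis and gluconeogenesis and 1 glycogen gene. The higher ones were 4 genes of the trehalase list, 4 osmotic stress genes, 4 furrow collagens and 2 genes of glycolysis and gluconeogenesis. In control libraries labelled daf-2 RNAi against control EV, limma called 0 of the 76 genes, with 10 (13.2%) at an unadjusted p under 0.05, 0 by edgeR and 2 (2.63%) by DESeq2; over all genes these shares were 9.3%, 1.53% and 2.99%. With the replicate letter as a block it called 3 (3.95%) higher and 4 (5.26%) lower, against 1.78% and 4.02% of all genes. Between starved and control libraries that both carried the label limma without the block called 0 as well, with 7 (9.21%) at an unadjusted p under 0.05, 0 by edgeR and 1 (1.32%) by DESeq2, against 10.1%, 0.912% and 2.9% of all genes. With the block it called 4 (5.26%) higher and 1 (1.32%) lower, against 3.08% and 0.67% of all genes.

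**Figure D5:**
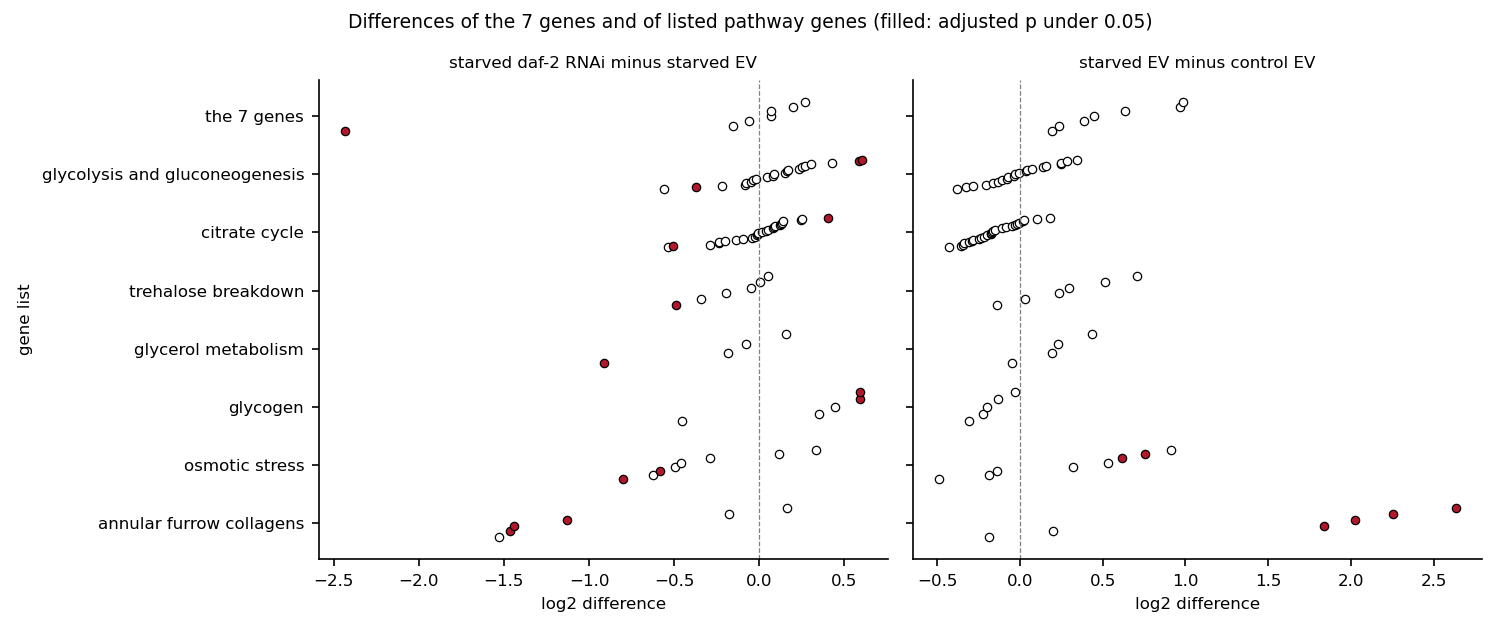
Log2 differences of single genes (points) in 7 lists of neighbouring pathways, with the 7 genes in the top row, for starved daf-2 RNAi label minus starved EV (left) and starved EV minus control EV (right); filled points have a limma adjusted p under 0.05. The furrow collagens have medians of -1.29 on the left and 1.93 on the right, and the glycogen genes 0.45 and -0.20.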

How the data were processed

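Per the labels, whole animals were extracted with Trizol and libraries were made from 500 ng RNA with 12 PCR cycles, with 1000 animals pooled per condition. Bowtie 1.1.2, HTSeq 0.12.4 and edgeR are named in the submitters' processing notes; for the genome build and strand setting these notes are silent. The authors deposited a signal per gene, CPM of a scaled library size, whose columns sum to 889133 to 1097908. Whole reads were recovered from the step size of each of the 12 columns (100% of values within 0.01 read), and used for edgeR and DESeq2 as alternatives. Gene names and coordinates come from the WBcel235 annotation.

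Of the genes, those that reached 1 CPM in 3 or more libraries entered the test with limma 3.58.1 (R 4.3.3; trend, log2(CPM + 1), all 4 groups, Benjamini-Hochberg). Alternatives were pseudocounts of 0.25 and 5, no filter, a mean of at least 5 CPM, quantile normalisation, edgeR 4.0.16 and DESeq2 1.42.0, the replicate letter as a block, only the groups compared, and removal of each library. The test was also run on simulated counts, drawn independently for each library without a shared effect of the replicate letter. That run therefore does not bear on how the letters affect the calls. Fold changes on the log2(CPM + 1) scale understate changes of low genes. Permuting 3 against 3 libraries exactly gives no p under 0.1, so no such test is reported.

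The letters pair libraries between RNAi labels: deviations from group means correlated at 0.82, 0.60 and 0.59 (A, B, C) in starved animals and at 0.70, 0.55 and 0.54 in control animals, a property of the data rather than of the labels. The members and lists were chosen with earlier results of these data known. Named were all 7 genes, their paralogs and partner enzymes, up to 2 called genes each way per list, and the 3 genes most like each. Sequences are not printed here.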

Additional observations from a re-analysis of the deposited data

How the results depend on the processing

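Over 35 gene results, 681 of 742 alternative values kept direction and side of the threshold, 13 lost a call (all gpdh-1 in control animals), 23 gained one and 25 changed sign. For starved EV against control EV, where limma called 0 of 7 genes, a pseudocount of 5 gave 1, edgeR 1, DESeq2 2, only the groups compared 1 and removal of single libraries 0 to 2. The replicate block gave 7 there (limma adjusted p 0.000222 to 0.0481), when 23.3% of all genes tested were called higher. Between arrest lengths, deviations from group means correlated for letters A and C and hardly for B. The values were 0.64, 0.08 and 0.66 in EV and 0.49, -0.10 and 0.58 under the label (A, B, C). For control libraries labelled daf-2 RNAi against control EV, 1 call became 0 with a mean of at least 5 CPM, 0 with quantile normalisation, 0 with edgeR, 3 with the block, 3 with edgeR and the block (chosen after seeing the data) and 0 to 1 without single libraries. For starved against control libraries under the label, 0 became 1 (icl-1) with the block. The block changed no other call of the 7 genes, and the cause of these shifts was not tested.

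Quantile normalisation turned gpdh-2 in starved libraries labelled daf-2 RNAi against starved EV to -0.073 and gpdh-1 between starved and control libraries under the label to -0.078. Removal of single libraries gave ranges across 0 for starved EV against control EV in pck-1 (-0.032 to 0.73). For starved libraries labelled daf-2 RNAi against starved EV this held for icl-1 (-0.068 to 0.58), pck-1 (-0.051 to 0.75), tps-1 (-0.12 to 0.29), tps-2 (-0.20 to 0.14) and gpdh-2 (-0.042 to 0.17), and in control animals for fbp-1 (-0.12 to 0.18). For starved against control libraries under the label it held for pck-1 (-0.21 to 0.31), fbp-1 (-0.10 to 0.16), tps-2 (-0.052 to 0.23), gpdh-1 (-0.32 to 0.41) and gpdh-2 (-0.011 to 0.17), and for the interaction in pck-1 (-0.66 to 0.14) and gpdh-2 (-0.20 to 0.0058). None of these differences was called by limma with all libraries and no block. The level of gpdh-1 in starved libraries labelled daf-2 RNAi rested on 60 to 198 reads. Its replicates ran between 2.49 and 8.59 CPM, a spread that limits its precision.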
